A study of Rattus norvegicus with 12 samples.

Results

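The IFIT genes and the genes of ISG15 conjugation were followed across RNA-seq of neonatal rat ventricular myocytes (NRVMs), heart muscle cells from newborn Sprague-Dawley rats grown as bulk cultures. The 9 members, Ifit1, Ifit2, Ifit3, Isg15, Uba7, Ube2l6, Herc6, Usp18 and Isg20, were taken by their gene symbols from a table of 18483 genes, and all 9 were among the 13967 genes that passed the filter on low counts. Herc6 passed only through the knockdown samples, in which it is high. Cells were transfected with a negative control siRNA (siNeg) or with a single siRNA that targets Slc39a2, a zinc importer (siSlc39a2), and each was left untreated or given phenylephrine (PE), an adrenergic agonist used to make cardiomyocytes grow in size. This gave 4 groups of 3 biological replicates, 12 samples in all: siNeg, siNeg PE, siSlc39a2 and siSlc39a2 PE. The sample labels give 36 h of PE, which differs from the culture methods of the study, so samples were grouped by condition alone. All groups were transfected, and no group without siRNA or with a second siRNA was analysed here, so the loss of Slc39a2 and any other action of this siRNA cannot be told apart.

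IFIT proteins are made when interferon signals through its receptor. They bind RNA, and IFIT1 with its partners holds back translation of RNA whose cap lacks the methyl mark that marks a cell's own messages. ISG15 is a small ubiquitin-like protein that is joined to other proteins by a relay of enzymes: UBA7 activates it, UBE2L6 carries it, and in rodents HERC6 transfers it. USP18 takes it off again and also blocks the type I interferon receptor, which makes it a brake on the same pathway. ISG20 is an interferon-induced exonuclease that degrades RNA.

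The promoters of interferon-induced genes often hold a repeat of GAAA that interferon regulatory factors bind. RefSeq promoter windows (assembly GRCr8, 250 bases before and 50 after the start) were matched to 5 of the 9 members, namely Ifit3, Isg20, Uba7, Ube2l6 and Herc6. No window was matched to Ifit1, Ifit2, Isg15 or Usp18. With both strands searched, GAAANNGAAA was found in Ifit3 and Isg20, and in 3.92% of all 33469 windows. The shorter AANNGAAA, which lies within the longer repeat wherever that is found, was in Ifit3, Isg20 and Uba7 and in 26.4% of all windows. Neither was in the windows of Ube2l6 and Herc6. The 250 bases before the start are shown for the genes with the longer repeat, which is in capitals, on the strand of the gene and from 5′ to 3′. Ifit1bl, a neighbour of Ifit1 that shared its reads, is shown with them. The repeat ended 35 bases before the start of Ifit3 (chr1:241527076-241527325, plus strand), 83 before that of Isg20 (chr1:142239809-142240058, plus strand) and 111 before 1 of the 2 starts listed for Ifit1bl (chr1:241543556-241543805, minus strand). The window of the other Ifit1bl start held no longer repeat. A match describes these letters only.

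Ifit3: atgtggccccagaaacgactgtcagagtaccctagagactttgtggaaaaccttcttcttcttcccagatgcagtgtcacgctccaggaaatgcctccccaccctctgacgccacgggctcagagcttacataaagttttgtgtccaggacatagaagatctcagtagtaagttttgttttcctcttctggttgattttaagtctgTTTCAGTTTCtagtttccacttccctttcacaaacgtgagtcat

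Isg20: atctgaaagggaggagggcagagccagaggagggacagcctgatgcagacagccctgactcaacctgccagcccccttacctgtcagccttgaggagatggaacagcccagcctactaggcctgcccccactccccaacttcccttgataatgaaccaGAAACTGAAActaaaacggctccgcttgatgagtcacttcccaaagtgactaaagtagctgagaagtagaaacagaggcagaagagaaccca

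Ifit1bl: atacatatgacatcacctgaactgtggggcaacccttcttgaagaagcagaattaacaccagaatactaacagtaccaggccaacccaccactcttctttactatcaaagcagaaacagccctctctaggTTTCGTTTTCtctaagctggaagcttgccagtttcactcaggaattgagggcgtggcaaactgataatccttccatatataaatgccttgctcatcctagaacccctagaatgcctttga

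Total counts per sample lay between 24065539 and 28603854. Slc39a2 had 50, 50 and 59 counts in the siNeg samples against 21, 11 and 2 in the siSlc39a2 samples, a log2 fold change (log2FC) of -2.35 (standard error, SE, 0.46, adjusted p = 9.8e-04 from edgeR), and -2.33 with PE (SE 0.38, adjusted p = 2.24e-04). With PE the counts were 95, 198 and 182 in siNeg and 31, 25 and 38 in siSlc39a2. Slc39a2 was thus higher with PE in siNeg cells (log2FC 1.47) and in siSlc39a2 cells (1.49). The part of this difference in the results with PE was not tested. All 8 cardiomyocyte markers were detected, with a summed level between 51513 and 53282 CPM (counts scaled to the normalized library) in siNeg and between 41456 and 42583 in siSlc39a2. The 7 fibroblast markers summed to between 13832 and 18319 CPM in siNeg and between 5303 and 5607 in siSlc39a2, and 4 of the 7 were lower past the threshold used below. The 7 macrophage markers in the table summed to between 21.7 and 28.4 CPM in siNeg and between 16.6 and 18.1 in siSlc39a2, with 1 of 7 lower past that threshold. With PE the same sums lay between 9155 and 11736 CPM in siNeg and between 3559 and 4924 in siSlc39a2 for fibroblasts, and between 15.4 and 16.6 and between 11.9 and 12.7 for macrophages. The 3 smooth muscle markers summed to between 697 and 716 CPM in siNeg and between 284 and 293 in siSlc39a2, and the 6 endothelial markers to between 13.7 and 15.9 and between 13.9 and 16.0. None of the marker genes was at 0 in every sample of a group. With PE the cardiomyocyte sums overlapped, between 58049 and 63098 CPM in siNeg and between 60346 and 64677 in siSlc39a2, as did those of smooth muscle, between 360 and 472 and between 463 and 491, and of endothelial cells, between 14.3 and 21.4 and between 13.7 and 17.1. The fibroblast and macrophage sums were thus lower with knockdown with and without PE, and those of cardiomyocytes and smooth muscle without PE. The single genes of a list did not all go with its sum. Without PE, 1 of 8 cardiomyocyte markers was lower past the threshold, Myh6 (-1.10), and 5 did not pass at the adjusted p. Of the fibroblast markers, Pdgfra had 0.12 (adjusted p = 0.439 from edgeR). Of all genes, 9.78% passed the threshold in either direction without PE. Their part in the results on the IFIT and ISG15 genes was not tested. In such bulk samples fewer cells of a type and less RNA per cell cannot be told apart.

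All 9 genes rose with Slc39a2 knockdown, with and without PE. Without PE the members had a median log2FC of 5.81, beside -0.02 over all genes tested, and with PE one of 5.78, beside 0.01. The threshold for a change was set at an adjusted p under 0.05 together with a log2FC beyond 1 in size, by edgeR's quasi-likelihood test with p-values adjusted after Benjamini and Hochberg. By this rule 9 of 9 members were higher without PE, where 4.57% of all genes were, and 9 of 9 with PE, where 6.03% were. In each comparison every knockdown sample lay above every siNeg sample for all 9 genes, as for 27.9% of all genes without PE and 31.8% with PE. Herc6 passed the filter on low counts only through the knockdown samples, so its place in these counts and medians is no further support. Together the 9 genes took 0.00565% ± 3.7e-04 (SD, n = 3) of all counts in siNeg and 0.00754% ± 4.2e-04 with PE added. In siSlc39a2 they took 0.307% ± 0.0027, and 0.226% ± 0.0088 with PE added.

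**Figure D1:**
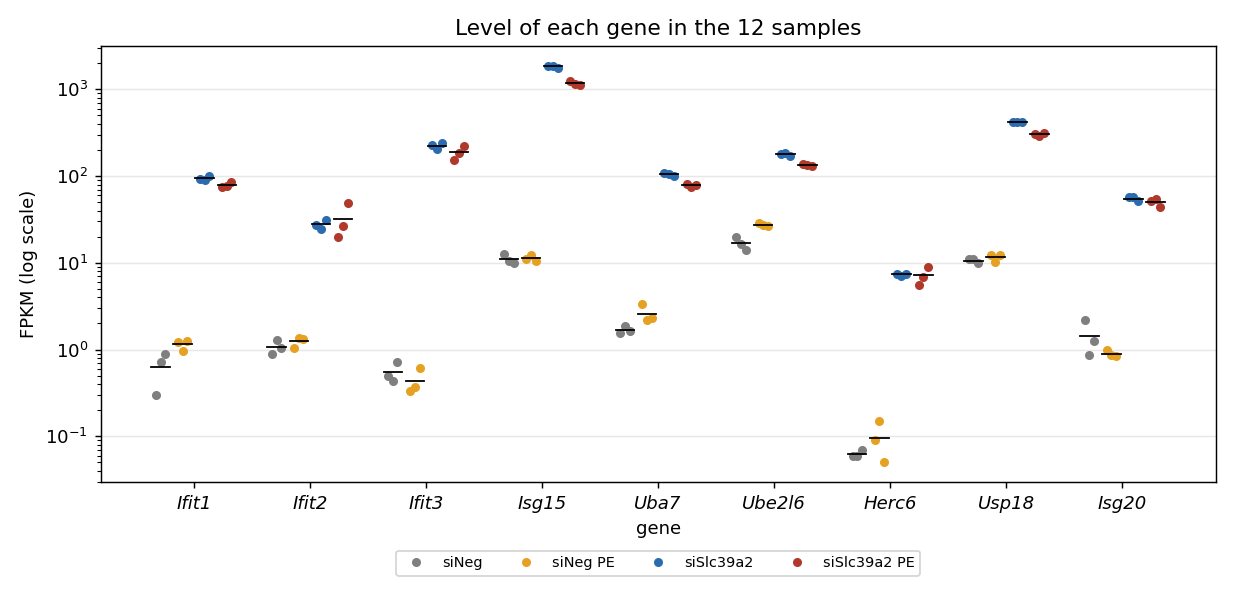
FPKM (fragments scaled to gene length and depth, log axis) of the 9 genes in the 12 samples; points are samples, bars are group means. For all 9 genes the siSlc39a2 and siSlc39a2 PE samples lie above the siNeg and siNeg PE samples, with Isg15 the highest (1837 FPKM on average in siSlc39a2) and Herc6 the lowest (7.35 FPKM).

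Among the IFIT genes, Ifit3, a partner of Ifit1 in RNA binding, showed the largest fold change of the 9. Ifit3 (NCBI gene 309526) was at 0.49, 0.43 and 0.72 FPKM in siNeg, 0.33, 0.37 and 0.62 in siNeg PE, 226, 208 and 239 in siSlc39a2, and 155, 186 and 222 in siSlc39a2 PE. The lowest knockdown sample was thus far above the highest siNeg sample, and replicates of the control groups rested on only 18 to 37 counts. With knockdown its log2FC was 8.54 without PE (SE 0.20, adjusted p = 2.2e-12) and 8.72 with PE (SE 0.20, adjusted p = 3.45e-12), or 373-fold and 422-fold. On log2(FPKM + 1) with limma it was 7.06 and 7.07. By log2FC Ifit3 stood at rank 17 of the 13967 genes without PE and at rank 6 with PE.

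Ifit1 (NCBI gene 56824), which recognises foreign RNA by its cap, was at 0.30, 0.71 and 0.88 FPKM in siNeg, 1.23, 0.96 and 1.27 in siNeg PE, 93.3, 90.1 and 100.0 in siSlc39a2, and 74.9, 77.5 and 86.5 in siSlc39a2 PE. The siNeg PE samples were all above the siNeg samples, and the siSlc39a2 PE samples were all below the siSlc39a2 samples. For Ifit1 the knockdown log2FC was 7.09 without PE (SE 0.19, adjusted p = 8.77e-12) and 6.10 with PE (SE 0.18, adjusted p = 2.45e-11).

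Ifit2 (NCBI gene 294091), which joins the same complexes, had the smallest fold change of the 3 IFIT genes. It was at 0.90, 1.28 and 1.03 FPKM in siNeg, 1.04, 1.37 and 1.34 in siNeg PE, 27.4, 24.5 and 31.6 in siSlc39a2, and 20.1, 26.5 and 48.5 in siSlc39a2 PE. The control groups overlapped each other, and the siSlc39a2 PE samples spread from below to above all siSlc39a2 samples. Knockdown gave Ifit2 a log2FC of 4.56 (SE 0.30, adjusted p = 6.76e-08) without PE and 4.65 (SE 0.29, adjusted p = 5.25e-08) with PE.

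The values of Ifit1 depend on how reads were divided with Ifit1bl (NCBI gene 294090). In assembly GRCr8 the genes Ifit2, Ifit3, Ifit1bl and Ifit1 follow each other in this order on chromosome 1, with a snoRNA gene between Ifit1bl and Ifit1. Neither Ifit1 nor Ifit1bl had whole-number counts in every sample, but their sum was whole to within 0.01 in all 12 samples. The sum was 40, 68 and 82 counts in siNeg, 204, 224 and 246 in siNeg PE, 6807, 6788 and 6608 in siSlc39a2, and 7178, 8349 and 9193 in siSlc39a2 PE. Ifit1bl held 49.2% ± 9.4 (SD, n = 3) of the sum in siNeg and 71.8% ± 4.6 with PE added, and 25.9% ± 1.8 in siSlc39a2 and 47.1% ± 2.3 with PE added. Its share was thus higher with PE than without PE, in siNeg and in siSlc39a2 cells, and no sample of one treatment overlapped the other.

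For Ifit1 and Ifit1bl summed, an alternative added after the data were seen, the log2FC with knockdown was 6.61 (SE 0.17, adjusted p = 6.12e-12) without PE and 5.19 (SE 0.15, adjusted p = 2.47e-11) with PE. Ifit1bl on its own had log2FC of 5.75 and 4.58. The rise with knockdown therefore held for Ifit1, for Ifit1bl and for their sum.

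Isg15 (NCBI gene 298693), the modifier itself, reached the highest level per length of the 9 genes in both knockdown groups. It was at 12.6, 10.5 and 10.1 FPKM in siNeg, 11.1, 12.3 and 10.6 in siNeg PE, 1868, 1871 and 1773 in siSlc39a2, and 1249, 1143 and 1115 in siSlc39a2 PE. The control groups overlapped, and every siSlc39a2 PE sample lay below every siSlc39a2 sample. Knockdown gave Isg15 a log2FC of 7.17 (SE 0.11, adjusted p = 1.24e-13) without PE and 6.64 (SE 0.11, adjusted p = 1.84e-13) with PE, or 144-fold and 99.5-fold.

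Uba7 (NCBI gene 301000), the activating enzyme, was at 1.54, 1.89 and 1.65 FPKM in siNeg, 3.32, 2.19 and 2.29 in siNeg PE, 108, 107 and 100.0 in siSlc39a2, and 80.8, 74.7 and 78.7 in siSlc39a2 PE. Here PE samples lay above the others in siNeg cells and below them in siSlc39a2 cells. Knockdown gave Uba7 a log2FC of 5.81 (SE 0.15, adjusted p = 4.37e-12) without PE and 4.91 (SE 0.14, adjusted p = 1.56e-11) with PE.

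Ube2l6 (NCBI gene 295704), the carrier enzyme, had the highest level of the 9 genes in control cells and the smallest fold change. It was at 20.1, 16.4 and 14.2 FPKM in siNeg, 29.01, 27.6 and 26.3 in siNeg PE, 180, 185 and 171 in siSlc39a2, and 139, 135 and 131 in siSlc39a2 PE. As for Uba7, no sample of one treatment overlapped the other, and the order of the treatments was opposite in siNeg and siSlc39a2 cells. For Ube2l6 the knockdown log2FC was 3.17 (SE 0.10, adjusted p = 5.6e-11) without PE and 2.24 (SE 0.10, adjusted p = 1.6e-09) with PE, or 9.02-fold and 4.72-fold.

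Herc6 (NCBI gene 362376), the ligase, was the lowest of the 9 genes in every group. It had 7, 6 and 8 counts in siNeg, 9, 13 and 6 in siNeg PE, 856, 791 and 778 in siSlc39a2, and 657, 863 and 1070 in siSlc39a2 PE. In FPKM it was at 0.06, 0.06 and 0.07 in siNeg and at 7.49, 7.10 and 7.45 in siSlc39a2. The control levels rest on few counts, so the size of its change, a log2FC of 6.71 (SE 0.24, adjusted p = 1.4e-10) without PE and 6.50 (SE 0.23, adjusted p = 1.49e-10) with PE, is known less closely than its direction. On log2(FPKM + 1) with limma it was 2.89 without PE and 2.78 with PE.

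Usp18 (NCBI gene 312688), the protease that removes ISG15, was at 11.1, 11.0 and 9.85 FPKM in siNeg, 12.5, 10.2 and 12.2 in siNeg PE, 421, 417 and 417 in siSlc39a2, and 304, 292 and 310 in siSlc39a2 PE. It varied least among replicates of siSlc39a2, with a coefficient of variation of 1.92% in CPM, and every siSlc39a2 PE sample lay below every siSlc39a2 sample. For Usp18 the knockdown log2FC was 5.23 (SE 0.09, adjusted p = 2.56e-13) without PE and 4.71 (SE 0.09, adjusted p = 7.07e-13) with PE. Its counts were not whole numbers in every sample, so part of its reads was shared with another gene that was not identified, and its values are uncertain to that extent. The other 7 members outside Ifit1 had whole counts in every sample.

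Isg20 (NCBI gene 293052), the exonuclease, was at 2.17, 0.87 and 1.25 FPKM in siNeg, 0.98, 0.87 and 0.84 in siNeg PE, 56.9, 56.9 and 51.1 in siSlc39a2, and 51.3, 54.4 and 44.3 in siSlc39a2 PE. One siNeg sample stood above the other two, and the treated and untreated samples overlapped in siNeg and in siSlc39a2 cells. For Isg20 the knockdown log2FC was 5.12 (SE 0.21, adjusted p = 4.66e-10) without PE and 5.78 (SE 0.22, adjusted p = 3.1e-10) with PE.

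**Figure D2:**
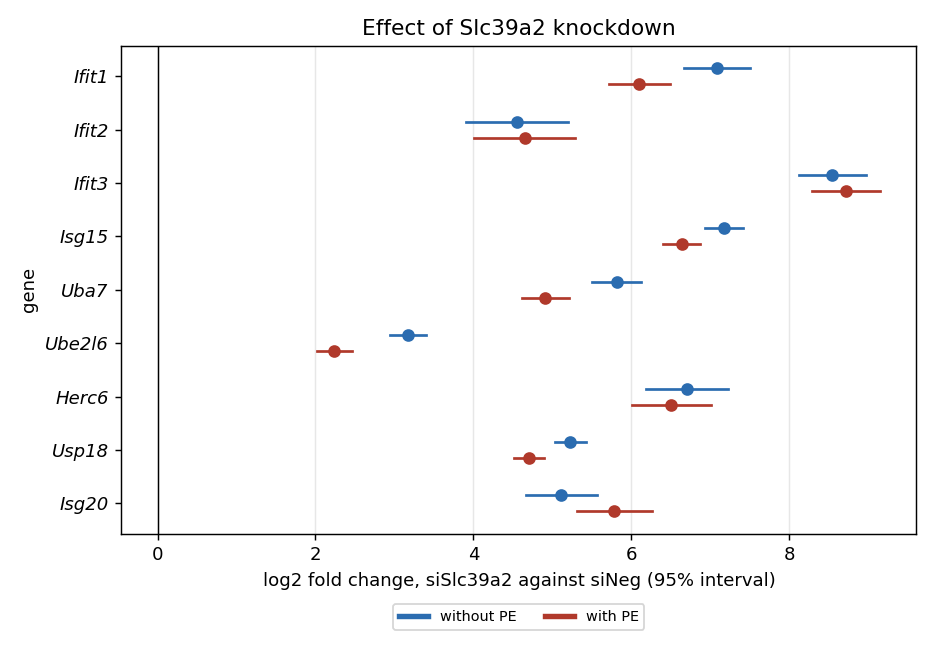
Log2 fold change of each of the 9 genes with Slc39a2 knockdown, without PE (siSlc39a2 against siNeg) and with PE (siSlc39a2 PE against siNeg PE); points are edgeR estimates and lines are 95% intervals. All points lie above 2, from 2.24 (Ube2l6 with PE) to 8.72 (Ifit3 with PE), and the intervals without and with PE do not overlap for Ifit1, Isg15, Uba7, Ube2l6 and Usp18.

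The order of the levels differed between control and knockdown cells. By mean FPKM the order in siNeg was Ube2l6 (16.9), Isg15 (11.0), Usp18 (10.6), Uba7 (1.69), Isg20 (1.43), Ifit2 (1.07), Ifit1 (0.63), Ifit3 (0.55) and Herc6 (0.063). Of these neighbours, Isg15 and Usp18, Uba7 and Isg20, Isg20 and Ifit2, and Ifit1 and Ifit3 overlapped between samples. In siSlc39a2 the order was Isg15 (1837), Usp18 (418), Ifit3 (224), Ube2l6 (178), Uba7 (105), Ifit1 (94.5), Isg20 (54.95), Ifit2 (27.8) and Herc6 (7.35), and only Uba7 and Ifit1 overlapped. Ifit3 thus moved from the place next to the lowest to the third place, and Ube2l6 from the first to the fourth. In siSlc39a2 PE the order was the same except that Ifit1 (79.6) and Uba7 (78.1), which overlapped, changed places, and Isg20 and Ifit2 overlapped as well. In siNeg PE, Usp18 (11.6) stood before Isg15 (11.3), with which it overlapped. Isg20 (0.90) stood there behind Ifit2 (1.25), with which it did not overlap, and behind Ifit1 (1.15), with which it did.

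The response to PE was small beside that to knockdown. In siNeg PE against siNeg, 0 of 9 members passed the threshold on fold change and adjusted p in edgeR, as in DESeq2 and limma, where 6.6% of all genes passed in edgeR, and 4 members had an unadjusted p below 0.05. The median log2FC of the members was 0.15, beside -0.01 over all genes. At the adjusted p alone 3 of 9 were higher, Ifit1, Uba7 and Ube2l6, where 24% of all genes were. Ube2l6 was higher by a log2FC of 0.62 (SE 0.10, adjusted p = 4.22e-04), Uba7 by 0.53 (SE 0.15, adjusted p = 0.0108) and Ifit1 by 0.79 (SE 0.25, adjusted p = 0.0196). Over the alternatives Ube2l6 passed in 14 of 14, Uba7 in 11 of 14 (adjusted p up to 0.11) and Ifit1 in 11 of 15 (up to 0.0736). For these 3 genes every siNeg PE sample lay above every siNeg sample, as for 29.3% of all genes. The other 6 members had log2FC between -0.76 (Isg20, adjusted p = 0.0569) and 0.31 (Herc6, adjusted p = 0.577).

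For Isg15 the difference between siNeg PE and siNeg was -0.07, with a 95% interval from -0.31 to 0.17, and for Usp18 it was 0.10, from -0.08 to 0.28. The intervals of Ifit2 (-0.56 to 0.87), Ifit3 (-1.07 to 0.31) and Herc6 (-0.64 to 1.25) were wider, so changes within them were not detectable. Control samples had 18 to 37 counts of Ifit3 and 6 to 13 of Herc6, but 82 to 128 of Ifit2. The cause of the width for Ifit2 was not tested. With Ifit1bl added to Ifit1, the log2FC with PE was 1.72 (SE 0.18, adjusted p = 1.71e-05), and for Ifit1bl alone it was 2.34 (SE 0.21, adjusted p = 4.11e-06). Ifit1bl was at 0.41, 0.46 and 0.61 FPKM in siNeg and at 2.20, 2.65 and 2.82 in siNeg PE. The siNeg samples enter this comparison and that of the knockdown without PE.

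In siSlc39a2 PE against siSlc39a2, Isg15, Usp18, Uba7 and Ube2l6 were lower at the adjusted p alone, by less than the fold threshold. Again 0 of 9 passed the threshold on fold change and adjusted p in edgeR, as in DESeq2 and limma, where 10.5% of all genes passed in edgeR, and 4 had an unadjusted p below 0.05. At the adjusted p alone 4 of 9 were lower, where 29.3% of all genes were, and the 4 are among the 5 members of ISG15 conjugation, of which Herc6 did not pass. Isg15 was lower by a log2FC of -0.61 (SE 0.08, adjusted p = 5.6e-05), Usp18 by -0.42 (SE 0.07, adjusted p = 4.08e-04), Uba7 by -0.37 (SE 0.11, adjusted p = 0.0116) and Ube2l6 by -0.32 (SE 0.09, adjusted p = 0.0107). Over 14 alternatives Uba7 passed in 12 (adjusted p up to 0.104) and the other 3 in all 14. In these 4 genes and in Ifit1 every siSlc39a2 PE sample lay below every siSlc39a2 sample, as for 32.7% of all genes. The median over the 9 members was -0.20, beside 0.01 over all genes.

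The IFIT genes, Herc6 and Isg20 did not pass in this comparison. Their log2FC were -0.19 for Ifit1 (adjusted p = 0.213), -0.20 for Ifit3 (adjusted p = 0.167), 0.25 for Ifit2 (adjusted p = 0.386), 0.10 for Herc6 (adjusted p = 0.549) and -0.09 for Isg20 (adjusted p = 0.623). Ifit1bl rose with PE in siSlc39a2 cells as well, by 1.17 (SE 0.13, adjusted p = 1.2e-05), from 26.1, 25.9 and 33.2 FPKM to 51.9, 60.1 and 72.8. With Ifit1bl added, Ifit1 turned from -0.19 to 0.30 (SE 0.12, adjusted p = 0.0477), so its direction depends on how the shared reads are divided.

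**Figure D3:**
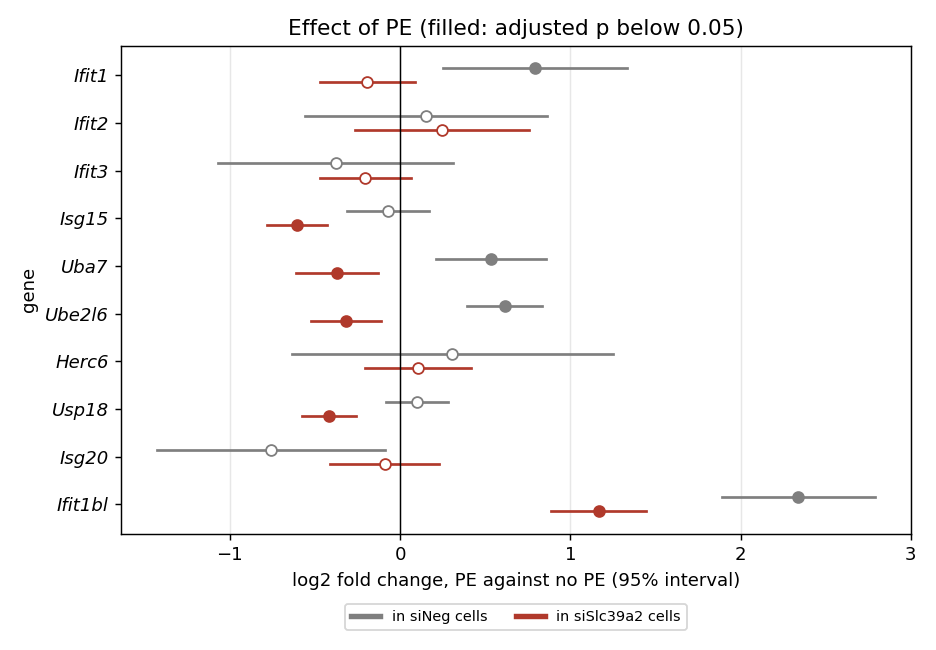
Log2 fold change with PE in siNeg cells (grey) and in siSlc39a2 cells (red) for the 9 genes and Ifit1bl; points are edgeR estimates, filled where the adjusted p is below 0.05, and lines are 95% intervals. Uba7 and Ube2l6 lie above 0 in siNeg cells (0.53 and 0.62) and below 0 in siSlc39a2 cells (-0.37 and -0.32), while Ifit1bl lies above 0 in both (2.34 and 1.17).

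Whether the knockdown effect differed with and without PE was tested by the interaction, the log2FC with PE less that without PE. At the adjusted p alone 3 of 9 members had a smaller knockdown effect with PE, where 1.88% of all genes had. All 3 belong to ISG15 conjugation, of whose 5 members Isg15 and Herc6 did not pass. Outside the members Ifit1bl, Ifitm3 and Stat2 also passed with a smaller effect, so this was not particular to ISG15 conjugation. The difference was -0.93 for Ube2l6 (SE 0.14, adjusted p = 0.00249 from edgeR), -0.90 for Uba7 (SE 0.19, adjusted p = 0.0179) and -0.52 for Usp18 (SE 0.11, adjusted p = 0.0225). Ube2l6 passed in all 19 fits tried, Uba7 in 13 of 19 and Usp18 in 11 of 19. None of the 3 reached an absolute difference of 1, which 0.988% of all genes did together with the adjusted p.

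Isg15 was near the threshold, with a difference of -0.54 (SE 0.14, adjusted p = 0.0506), and its adjusted p ranged from 0.00533 to 0.152 over the fits. For Ifit1 the difference was -0.98 (SE 0.28, adjusted p = 0.0794), and for Ifit1 and Ifit1bl summed it was -1.42 (SE 0.22, adjusted p = 0.00346). No difference was detected for Ifit2 (0.09), Ifit3 (0.17), Herc6 (-0.20) or Isg20 (0.67), whose adjusted p were between 0.371 and 0.948. The 95% interval for Ifit3 was from -0.56 to 0.91, and that for Ifit2 from -0.79 to 0.97.

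The replicates of the knockdown groups did not vary alike for all members. In siSlc39a2 PE, Ifit2 was at 66.8, 86.9 and 160 CPM in replicates 1, 2 and 3, a coefficient of variation of 46.9%. Replicate 3 was also the highest for Ifit3, Herc6, Ifit1 and Usp18, at 2.08 times the mean of the other samples for Ifit2, 1.43 times for Herc6, 1.29 times for Ifit3, 1.13 times for Ifit1 and 1.04 times for Usp18. The same replicate was the lowest for Isg15, Ube2l6 and Isg20, at 0.912, 0.961 and 0.825 times the mean of the others. In siSlc39a2 without PE, replicate 3 was likewise the highest for Ifit1, Ifit2, Ifit3 and Herc6, at 1.06 to 1.19 times the mean of the others, and the lowest for Isg15, Uba7, Ube2l6, Usp18 and Isg20, at 0.875 to 0.968 times. Without replicate 3 of siSlc39a2 PE the log2FC of Ifit2 with PE in siSlc39a2 cells was -0.20 in place of 0.25, and that of Herc6 was -0.09 in place of 0.10.

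**Figure D4:**
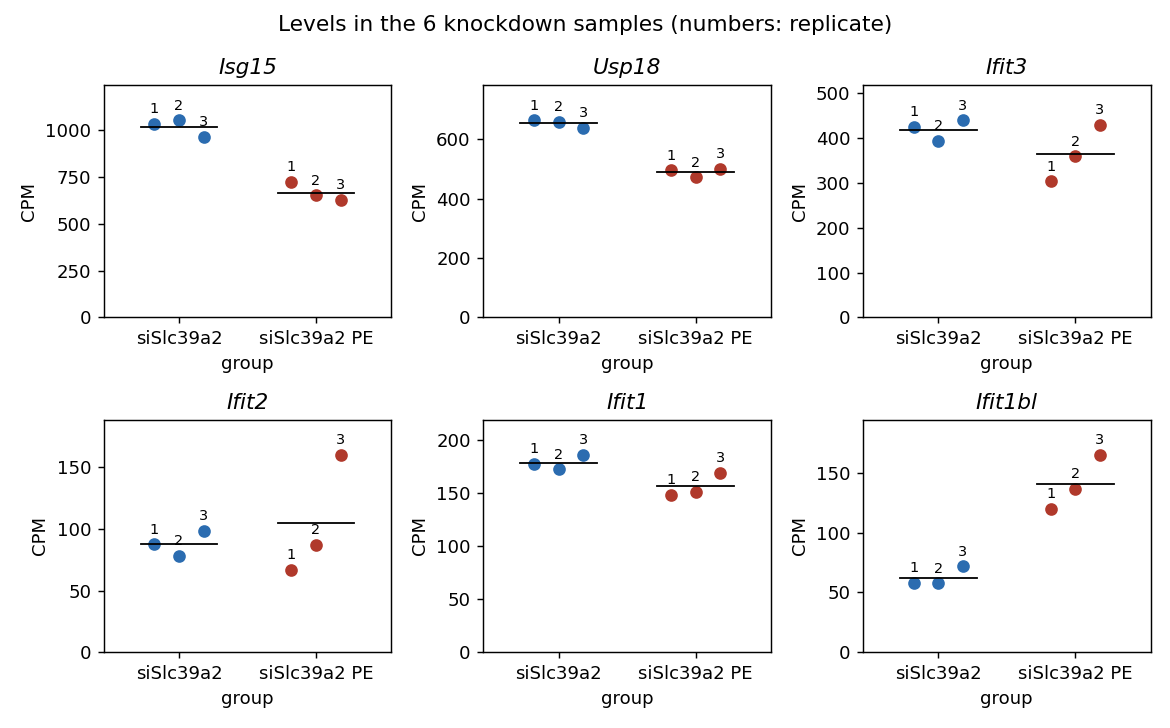
CPM in the 3 siSlc39a2 and 3 siSlc39a2 PE samples for Isg15, Usp18, Ifit3, Ifit2, Ifit1 and Ifit1bl; points are samples with their replicate numbers, bars are means, and axes start at 0. In siSlc39a2 PE, replicate 3 is the highest for Ifit2 (160 CPM), Ifit3 (428 CPM) and Ifit1bl (165 CPM) and the lowest for Isg15 (625 CPM).

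Genes that work beside the members were counted from lists. Of 36 tested genes of ubiquitin and its other relatives, 1 rose past the threshold with knockdown without PE, Trim25, a ligase that can transfer ISG15 as well as ubiquitin, with a log2FC of 1.61 (SE 0.06, adjusted p = 3.18e-10) and 1.60 with PE. With PE, 2 of 36 rose past it, Trim25 and Herc4, a relative of Herc6 (1.02, SE 0.17, adjusted p = 2.15e-04). The counts of Herc4 were not whole, so its place just past the threshold is uncertain. Over the 36 genes the median was 0.02 in the comparison without PE and 0.11 in that with PE. At the adjusted p alone 11 were higher and 8 lower without PE, where 22.8% of all genes were higher and 26.4% lower. Of the ubiquitin counterparts of the ISG15 enzymes, Uba1 (-0.18, adjusted p = 0.0213) and Ube2l3 (-0.30, adjusted p = 9.93e-04) were lower without PE. Arih1, listed as an alternative ligase, had 0.24 (adjusted p = 0.143) there. With PE, Ube2l3 was lower (-0.17, adjusted p = 0.0229), Arih1 was higher (0.55, adjusted p = 0.00225) and Uba1 had 0.00 (adjusted p = 0.959). Usp2, a ubiquitin protease, had 0.01 (adjusted p = 0.876) without PE and was lower with PE (-0.235, adjusted p = 0.00835). None of the 36 passed in the interaction by edgeR, where 3.61% of all genes did, and 4 had an unadjusted p below 0.05.

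Of 4 genes that take part in methylation of the RNA cap, which IFIT1 reads, 1 rose past the threshold without PE and with PE. This was Cmtr1, which adds the methyl mark next to the cap, with a log2FC of 1.39 (SE 0.06, adjusted p = 4.52e-10) without PE and 1.15 (SE 0.06, adjusted p = 3.71e-09) with PE. The counts of Cmtr1 were not whole, so its values are uncertain to the extent that reads were shared. Without PE, Rnmt was higher by 0.73 (adjusted p = 0.00496) and Cmtr2 by 0.56 (adjusted p = 3.49e-04). Both were under a log2FC of 1, and Ramac had 0.25 (adjusted p = 0.111). With PE, Rnmt was higher by 0.80 (adjusted p = 0.00178) and Ramac by 0.34 (adjusted p = 0.032), while Cmtr2 had 0.12 (adjusted p = 0.298). Of 6 exonucleases related to Isg20, 0 passed the threshold on fold change and adjusted p in edgeR without PE, where 9.78% of all genes did, and 0 did at an unadjusted p and that fold. At the adjusted p alone 3 were higher, among them Eri1 (0.66, adjusted p = 0.0331) and Aen (0.54, adjusted p = 6.33e-04), and 1 was lower, Rexo2 (-0.21, adjusted p = 0.0114).

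Of 7 genes that share a name with the IFITs, 5 were tested and 3 of them rose past the threshold without PE and with PE. These were Ifit1bl, Ifitm3 and Ifitm10, the last 2 being membrane proteins of another family. Ifitm3 had 3.24 without PE (SE 0.10, adjusted p = 3.59e-11) and 2.55 with PE (SE 0.10, adjusted p = 3.82e-10). Ifitm10 had 1 to 4 counts in siNeg and 2 to 6 in siNeg PE against 12 to 14 in siSlc39a2 and 15 to 24 in siSlc39a2 PE, so it passed the filter only through the knockdown samples, in which it is high, and its place in the count is no further support. Without PE, Ifitm2, whose counts were not whole, was higher by 0.33 (adjusted p = 0.00328) and Ifitm1 had 0.09 (adjusted p = 0.565). With PE, Ifitm2 had 0.06 (adjusted p = 0.524) and Ifitm1 had 0.03 (adjusted p = 0.819). Of 11 genes of the interferon signal, 6 rose past the threshold in each comparison, of which Ifnb1 passed the filter on low counts only through the knockdown samples. Ifnb1, which encodes interferon beta, had 0 counts in all siNeg and siNeg PE samples, 246, 242 and 189 in siSlc39a2 and 46, 34 and 39 in siSlc39a2 PE. Against a floor of 3 counts per library this was at least 68.7-fold higher without PE and at least 13.2-fold higher with PE. Between the knockdown groups Ifnb1 was lower with PE by a log2FC of -2.48 (SE 0.20, adjusted p = 1.15e-05), beside -0.61 for Isg15 and 0.25 for Ifit2.

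Genes outside the members with an average log2 CPM above 1 were also ranked by how close their log2FC lay to those of the members. The distance was taken over the 3 values of the other 3 groups against siNeg, from 12 samples. Closest to the mean of the 9 members was Gbp2, at a distance of 0.316, followed by Cxcl17 (0.381), Oasl2 (0.414), Samd9 (0.561) and Ccl4 (0.610). Closest to Isg15 were Oas2 (0.250), Irf7 (0.251), Rtp4 (0.361), Oas1a (0.489) and LOC100910979 (0.641). The counts of Oasl2, Oas1a and LOC100910979 were not whole, so their place is uncertain.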

How the data were processed

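Total RNA of NRVMs in 4 groups, with 3 biological replicates per group, was sequenced by BGI. The submitters' processing notes name HISAT, Bowtie2 and the build Rnor_6.0. The counting program and annotation are not given in the sources used here. The authors deposited FPKM, scaled by them for gene length and depth, and expected counts of the same genes, not normalized, which split a read among the genes it fits. Of the expected counts, 79.5% were whole numbers. Strand use in counting is not stated.

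After rounding of the expected counts, the filter of edgeR 4.0.16 in R 4.3.3 (filterByExpr) left out 4516 of 18483 genes. Counts were normalized by TMM and all 12 samples were fitted in 1 model with 8 residual degrees of freedom. Comparisons used its quasi-likelihood test, with adjustment after Benjamini and Hochberg over the 13967 genes tested. CPM divide each count by the library size after TMM. Total counts lay between 24065539 and 28603854. No replicate was a copy, since chi-square per degree of freedom between replicates was at least 4.73. Floors of 3 counts cover counting error only. The study names limma after normalizeBetweenArrays but not the values it was run on, so the count test was used here and limma was an alternative.

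Results were recomputed with DESeq2 1.42.0, with RLE size factors, no low-count filter, a fit on the compared groups alone, the replicate block, limma 3.58.1 on log2 counts with 1 added and on log2 FPKM with 1 or 0.1 added, other thresholds, and leaving out each replicate in turn. The replicate numbers were checked for pairing. Across genes, deviations of same-numbered samples from their group means correlated between -0.0904 and 0.320, and in 0 of 4 comparisons were all 3 over 0.1, so the numbers were not taken as pairs. This rule does not exclude pairs, and the replicate block among the alternatives gives the fits with them. Fits were tested on simulated data.

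The members and lists were chosen with earlier results of these data known. The text names all 9 members, and from each list the genes with the largest and the smallest absolute log2 fold change without PE, apart from some that are not reported here. Ifit1bl was added because it shares reads with Ifit1, and Uba1, Ube2l3 and Arih1 as the nearest relatives or alternative ligases of members. Herc4, Rexo2 and Ifitm10 were named after their values were seen. Promoter windows came from RefSeq (GRCr8), whose coordinates were not mixed with those of Rnor_6.0. Cd163 was not analysed here.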

Additional observations from a re-analysis of the deposited data

Results flagged for a closer look

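The following genes were marked because their knockdown effect differed between cells with and without PE in the interaction test of edgeR, each with 3 samples per group. Among the members these were Ube2l6, with a difference of -0.93 on the log2 scale (adjusted p = 0.00249), Uba7 with -0.90 (adjusted p = 0.0179) and Usp18 with -0.52 (adjusted p = 0.0225). For all 3 genes the knockdown effect was smaller with PE.

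Outside the members, Ifit1bl differed by -1.17 (adjusted p = 0.0214), Ifitm3 by -0.69 (adjusted p = 0.0131) and Stat2, which carries the interferon signal, by -0.44 (adjusted p = 0.0209). Rexo2, an exonuclease related to Isg20, differed by 0.40 (adjusted p = 0.02), from -0.21 without PE to 0.19 with PE. The counts of Ifit1bl were shared with Ifit1.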

How the results depend on the processing

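The rise of all 9 members with knockdown passed the threshold in every alternative run, with and without PE, but its size did not hold for the lowest genes. Herc6, which passed the filter on low counts only through the knockdown samples, adds no further support here. Over the alternatives the log2 fold change ranged from 2.89 to 6.82 without PE and from 2.78 to 6.79 with PE for Herc6, and from 7.06 to 8.78 and 7.07 to 9.04 for Ifit3, lowest in each case on log2(FPKM + 1), where the pseudocount exceeds their control levels. For Ifit1 it ranged from 5.75 to 7.39 without PE and from 5.19 to 6.17 with PE. The counts for PE and for the interaction moved more. In siNeg PE against siNeg the count was 0, and 3 at the adjusted p alone. Leaving out single replicates gave 0 to 1, with Isg20 (-1.02) passing without siNeg replicate 2 and Ifit1 (1.09) without siNeg replicate 3. The adjusted p of Uba7 was over 0.05 in the 3 limma fits, and that of Ifit1 in the fit on both groups alone (0.0736) and without siNeg replicate 1 (0.0506), siNeg PE replicate 1 (0.0519) or siNeg PE replicate 3 (0.066). In siSlc39a2 PE against siSlc39a2 the count was 0, and 4 at the adjusted p alone, of which Uba7 was lost with limma on log2(FPKM + 0.1) (0.104) and log2(count + 1) (0.0773).

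The interaction count was 3 at the adjusted p alone and 0 with a fold threshold added. It was 5 with DESeq2, 5 with the replicate block, which added Isg15 and Ifit1, and 1 with limma on log2(FPKM + 0.1) or log2(count + 1). Leaving out single replicates gave 1 to 4, and 1 without siSlc39a2 PE replicate 2 or siSlc39a2 replicate 1. The block moved no other count of member calls, and the cause of these shifts was not tested.

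Only values that had not passed in edgeR changed direction. Summed with Ifit1bl, Ifit1 turned to 0.30 with PE in siSlc39a2 cells. There Herc6 was -0.082 with limma on log2(FPKM + 1) and -0.095 on log2(FPKM + 0.1). The other turns came from leaving out single replicates. With PE in siNeg cells Isg15 ranged from -0.14 to 0.052 (without siNeg replicate 1). With PE in siSlc39a2 cells Ifit2 ranged from -0.20 to 0.46 and Herc6 from -0.089 to 0.23, both turning without siSlc39a2 PE replicate 3. In the interaction Ifit2 ranged from -0.35 (without siSlc39a2 PE replicate 3) to 0.29, turning also without siNeg replicate 2 (-0.049) and siNeg PE replicate 1 (-0.011). Ifit3 ranged from -0.062 (without siNeg replicate 3) to 0.50, and Herc6 from -0.43 to 0.086 (without siNeg PE replicate 2). Herc6 could not be fitted on the siNeg and siNeg PE samples alone, since it fell below the filter. With 6 to 13 counts of Herc6 and 16 to 42 of Isg20 in control samples, depth limits what can be seen of PE there.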
